A study of Mus musculus with 10 samples.

Results

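Advillin (Avil) and its relatives form the gelsolin and villin family of actin-binding proteins, and their transcripts were followed across 10 mouse pancreatic cancer cell lines. The 8 members, Avil, Vil1, Vill, Gsn, Scin, Capg, Svil and Flii, were taken by name from a table of 49568 genes. Avil was picked because it was lower in the KPCAf/f lines than in the KPC lines, so that its difference between these genotypes is given as a description without a test. The other 7 members were taken by family. Messenger RNA was sequenced once from each line, in 5 KPCAf/f lines (A1693, A1809, A1925, A2441 and A3992) and 5 KPC lines (A1081, A1620, A1625, A2031 and A2032). KPC denotes a widely used mouse model of pancreatic cancer. The series title names Arid1a, a SWI/SNF chromatin remodelling subunit, and KPCAf/f is taken here to mean KPC with floxed alleles of that gene. The labels give neither the individual alleles nor the Cre driver, and they do not say whether each line came from its own mouse or is a clone. P-values rest on the spread among lines, whatever its source. The culture medium for all of them was DMEM with serum and antibiotics, and no treatment is named.

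Gelsolin proteins are built from repeated gelsolin domains that bind actin, several of them in a calcium-dependent manner. Members differ in what they do to a filament: gelsolin, adseverin and villin can sever it and cap its fast-growing end, CapG caps without severing, and villin also bundles filaments in the microvilli of intestinal and other absorptive epithelia. Advillin, the closest relative of villin, is known from sensory neurons and from tuft cells, the chemosensory cells of the gut and of injured pancreatic epithelium. Supervillin and flightless I are larger members that join gelsolin domains to other modules, in supervillin for membrane-linked contractile structures and in flightless I for leucine-rich repeats.

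The promoter windows of 3 members are shown here because Avil and Gsn were the 2 members whose levels did not overlap between the genotypes, and Vil1 is the nearest relative of Avil. Each runs from 250 bases before to 50 bases after an annotated start (RefSeq, GRCm38.p6) and is written 5′ to 3′ on the gene's strand. Windows were on hand for 7 of the 8 members. Capitals mark matches, on either strand, to any of 8 motifs searched: AP-1 (TGANTCA), the octamer (ATGCAAAT), TEAD (CATTCC), the Snail and ZEB E-box (CACCTG), the GC box (GGGCGG), the CCAAT box (CCAAT), the TATA box (TATAAA) and the CArG box bound by serum response factor.
Avil, chr10:127000459-127000758, plus strand: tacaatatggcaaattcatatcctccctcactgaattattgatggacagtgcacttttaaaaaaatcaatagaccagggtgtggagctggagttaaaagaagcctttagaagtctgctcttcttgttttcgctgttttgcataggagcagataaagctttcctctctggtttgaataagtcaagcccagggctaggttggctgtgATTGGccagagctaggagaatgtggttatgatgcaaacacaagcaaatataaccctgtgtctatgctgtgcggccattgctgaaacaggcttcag
Vil1, chr1:74409134-74409433, plus strand: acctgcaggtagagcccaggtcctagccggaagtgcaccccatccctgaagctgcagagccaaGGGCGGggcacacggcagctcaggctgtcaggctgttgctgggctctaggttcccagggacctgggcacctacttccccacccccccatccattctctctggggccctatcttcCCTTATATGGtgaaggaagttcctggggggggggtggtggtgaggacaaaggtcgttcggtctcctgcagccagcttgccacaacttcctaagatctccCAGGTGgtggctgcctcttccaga
Gsn, first start, chr2:35256109-35256408, plus strand: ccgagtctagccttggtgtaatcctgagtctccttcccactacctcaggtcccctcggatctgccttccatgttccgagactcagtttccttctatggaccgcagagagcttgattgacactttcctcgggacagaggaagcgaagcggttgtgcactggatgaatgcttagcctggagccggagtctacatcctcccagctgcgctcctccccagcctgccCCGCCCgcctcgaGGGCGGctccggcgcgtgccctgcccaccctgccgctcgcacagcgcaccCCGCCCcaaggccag
Gsn, second start, chr2:35266494-35266793, plus strand: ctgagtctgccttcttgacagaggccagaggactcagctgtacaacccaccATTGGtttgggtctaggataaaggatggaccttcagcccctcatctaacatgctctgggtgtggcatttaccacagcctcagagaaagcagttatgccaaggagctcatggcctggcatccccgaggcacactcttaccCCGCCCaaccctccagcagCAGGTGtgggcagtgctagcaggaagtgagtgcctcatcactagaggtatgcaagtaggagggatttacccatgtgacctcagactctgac
Gsn, last start, chr2:35282130-35282429, plus strand: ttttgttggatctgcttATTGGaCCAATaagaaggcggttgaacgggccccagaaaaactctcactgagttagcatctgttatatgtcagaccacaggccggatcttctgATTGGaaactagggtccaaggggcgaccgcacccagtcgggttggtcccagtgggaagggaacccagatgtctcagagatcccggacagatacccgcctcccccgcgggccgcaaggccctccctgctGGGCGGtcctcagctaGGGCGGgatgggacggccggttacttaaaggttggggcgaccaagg

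The Avil window held 1 match, a CCAAT box on the reverse strand 45 bases before the start, a motif present in 37.4% of 32851 mouse promoter windows. The Vil1 window held a CArG box 73 bases before the start, present in 1.63% of windows, together with 1 GC box and 1 E-box. The E-box letters were in 20.2% of windows. Gsn has 3 annotated starts, with 3, 1 and 2 GC boxes in their windows in the order shown, and GC boxes were in 35.7% of windows. No match in these windows says only that the letters are not there. The deposited counts are per gene and do not show which Gsn start was used.

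Reads assigned to genes ranged from 15124888 to 20419830 per line, so that 1 read was worth about 1 normalized count. Values below are counts divided by the authors' DESeq2 size factors. Arid1a itself had 1253 to 1785 normalized counts in the KPCAf/f lines and 820 to 3109 in the KPC lines, and a gene-level count also takes in exons outside any deleted stretch, so that it does not check the labels. Line A1693 (KPCAf/f) stood apart, with 2.7 normalized counts of the pancreatic factor Pdx1 and 10.8 of E-cadherin (Cdh1), against 594 to 1679 and 3143 to 22853 in the other 9 lines. Line A1620 (KPC) stood apart in its trend with transcript length. Each doubling of length went with a log2 change of -0.65 in A1620 and of -0.02 to 0.04 in the other KPC lines. In the KPCAf/f lines it was 0.096 to 0.15, so that this trend also differed between the genotypes.

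Avil was low in all KPCAf/f lines and high but variable in the KPC lines. Avil occupies chr10:127000709-127020994 (GRCm38, plus strand) and has a longest annotated transcript of 3033 bases. Avil had 27.9 (A1693), 20.5 (A1809), 57.3 (A1925), 23.6 (A2441) and 15.0 (A3992) normalized counts in KPCAf/f lines, against 329 (A1081), 1734 (A1620), 1617 (A1625), 269 (A2031) and 2930 (A2032) in KPC lines. The groups did not overlap, and the lowest KPC line was 4.7-fold above the highest KPCAf/f line. These values chose the gene. For reference, values did not overlap between the genotypes in either direction for 4.53% of 13089 tested genes, and in the direction lower in KPCAf/f for 1.69%.

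Avil averaged 28.9 ± 16.6 normalized counts in KPCAf/f lines and 1376 ± 1109 in KPC lines (SD, n = 5 each). On the log2(normalized count + 1) scale the KPCAf/f mean was 4.75 and the KPC mean 9.88, a difference of -5.12. Within KPC the lines fell into a higher set of 3 (A1620, A1625 and A2032) and a lower set of 2 (A1081 and A2031), with a 10.9-fold range. Within KPCAf/f the range was 3.83-fold, with A1925 the highest. The low values were counted from reads in every line, between 17 reads in A3992 and 68 in A1925. The KPCAf/f lines together gave 162 Avil reads, or 2.47% of all Avil reads in the 10 lines. Leaving out A1925 lowered the KPCAf/f mean to 21.7, and the KPC mean was 987 without A2032 and 1653 without A2031.

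Avil shares 165 of its 3398 exon bases with Tsfm, a mitochondrial translation elongation factor on the opposite strand. The library kit keeps strand, but how the counting treated strand is not given in the sources used here. Reads in this stretch are therefore uncertain. Tsfm had 293 to 554 normalized counts in KPCAf/f lines and 527 to 1363 in KPC lines. The 3 other overlaps are smaller: Vil1 shares 49 exon bases with Usp37, Flii shares 64 with Llgl1, and Gsn shares none with the unnamed gene inside it.

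**Figure D1:**
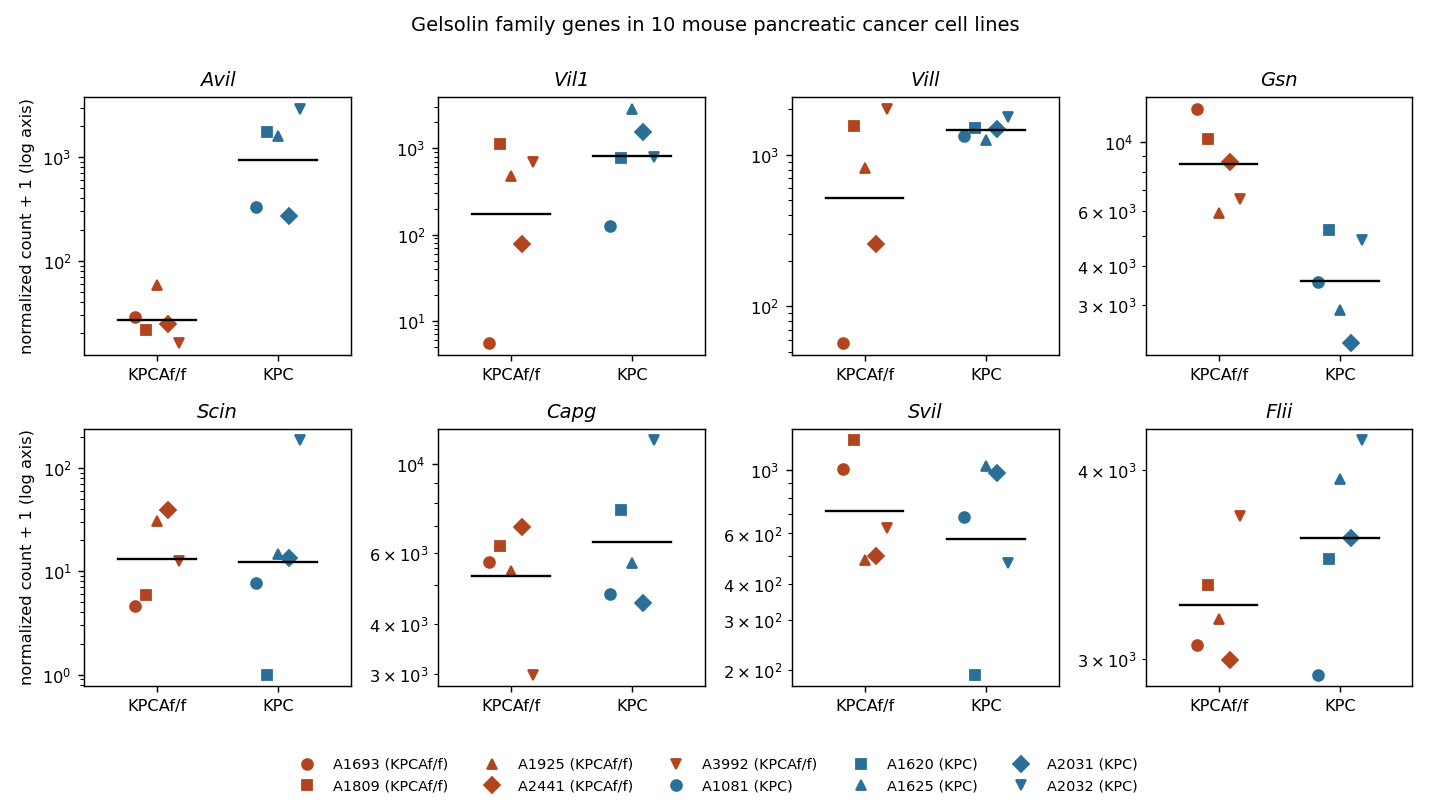
Normalized count + 1 (log axis) of each gelsolin family gene in each line, KPCAf/f lines at the left and KPC lines at the right of each panel; black bars are means on the log2 scale. Avil and Gsn are the only panels in which the genotypes do not overlap, Avil with KPCAf/f lines below and Gsn with KPCAf/f lines above the KPC lines.

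Of the 7 members other than Avil, each was measured well enough to be tested and 0 passed the threshold between genotypes (limma, Benjamini-Hochberg adjusted p under 0.05 over all 13089 tested genes). Of all tested genes 1.75% passed in either direction, 1.36% higher and 0.39% lower in KPCAf/f. At an unadjusted p under 0.05 there was 1 member, Gsn. Of all tested genes 14.6% had an unadjusted p under 0.05. Other tools called 0 members with edgeR (1.31% of all genes), 1 with DESeq2 (Gsn, 5.7%) and 0 with limma-voom (0.802%). The log2 differences were positive for 3 and negative for 4 of the 7, with a median of -0.15 against -0.01 over all tested genes. The 7 members are described in the order of their activities, severing and capping proteins first.

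Gsn, gelsolin itself, was the member that came nearest to the threshold, with more transcript in KPCAf/f. Gsn had 12748 (A1693), 10240 (A1809), 5928 (A1925), 8606 (A2441) and 6557 (A3992) normalized counts in KPCAf/f lines, against 3554 (A1081), 5240 (A1620), 2893 (A1625), 2269 (A2031) and 4853 (A2032) in KPC lines. The groups did not overlap, but A1925 and A1620 lay close together, and for comparison the genotypes did not overlap in the direction higher in KPCAf/f for 2.84% of tested genes. Means were 8816 ± 2783 in KPCAf/f and 3762 ± 1265 in KPC (SD, n = 5 each). The log2 difference was 1.24 (SE 0.29, 95% interval 0.61 to 1.87, taken singly), and the limma adjusted p was 0.0604, which misses the threshold. The adjusted p crossed the threshold in 4 of 11 other settings (range over the 11, 0.00517 to 0.0836): DESeq2, TMM scaling (which called 1.67% of all genes), quantile scaling (1.78%) and the length correction (1.85%). With any 1 line left out it ran from 0.05 to 0.147, with 0 of 10 past the threshold. Without A1693 the difference was 1.09 (limma adjusted p = 0.12) and without A1620 it was 1.38. Gsn lies on chromosome 2 at 35256380 to 35307892.

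Scin encodes adseverin, also called scinderin, a calcium-dependent severing protein of secretory cells. It was close to the detection limit in most lines. Scin had 3.6 (A1693), 4.91 (A1809), 29.5 (A1925), 38.2 (A2441) and 11.5 (A3992) normalized counts in KPCAf/f lines, against 6.63 (A1081), 0 (A1620), 13.7 (A1625), 12.3 (A2031) and 184 (A2032) in KPC lines. A2032 was the highest line of either genotype for Scin, as it was for Avil, Capg and Flii. The 0 in A1620 is 0 of 16774760 reads, which allows up to 3 reads or 3.97 normalized counts (counting error only). The log2 difference was 0.11 with a 95% interval of -2.53 to 2.75 (limma adjusted p = 0.975), and it was -0.79 without A1620 and 1.09 without A2032. At this depth and spread no difference was detected.

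Capg encodes the macrophage capping protein, which caps filaments but does not sever them and is widely expressed in motile cells. Capg had 5686 (A1693), 6248 (A1809), 5406 (A1925), 6982 (A2441) and 2983 (A3992) normalized counts in KPCAf/f lines, against 4751 (A1081), 7689 (A1620), 5655 (A1625), 4511 (A2031) and 11475 (A2032) in KPC lines. The groups overlapped widely, and the lowest line was a KPCAf/f line and the highest a KPC line. The log2 difference was -0.28 with a 95% interval of -0.96 to 0.39 (limma adjusted p = 0.684). This interval leaves room for a level in KPCAf/f between 0.514 and 1.31 times that in KPC.

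Vil1, the villin of absorptive epithelium, ranged more widely in KPCAf/f than any other member. Vil1 had 4.5 (A1693), 1111 (A1809), 479 (A1925), 76.4 (A2441) and 695 (A3992) normalized counts in KPCAf/f lines, against 124 (A1081), 767 (A1620), 2851 (A1625), 1523 (A2031) and 791 (A2032) in KPC lines. The highest KPCAf/f line was 247-fold above the lowest, and the KPC lines spanned 23-fold. The SD on the log2 scale was 3.14 in KPCAf/f and 1.69 in KPC. The log2 difference of -2.21 (95% interval -5.21 to 0.8) did not pass (limma adjusted p = 0.478), and it was -0.96 without A1693 (adjusted p = 0.694).

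Vill encodes villin-like protein, whose activity on actin is less well described. Vill had 55.8 (A1693), 1551 (A1809), 819 (A1925), 255 (A2441) and 2015 (A3992) normalized counts in KPCAf/f lines, against 1323 (A1081), 1498 (A1620), 1245 (A1625), 1475 (A2031) and 1770 (A2032) in KPC lines. The KPC lines lay within a 1.42-fold range, whereas the KPCAf/f lines spanned 36.1-fold and reached both below and above them. The log2 SD was 2.12 in KPCAf/f and 0.19 in KPC. The log2 difference of -1.49 (95% interval -3.29 to 0.32) did not pass (limma adjusted p = 0.425), and it was -0.69 without A1693 (adjusted p = 0.607).

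Svil encodes supervillin, a large protein that links actin and myosin II to the membrane. Svil had 1005 (A1693), 1268 (A1809), 482 (A1925), 501 (A2441) and 625 (A3992) normalized counts in KPCAf/f lines, against 683 (A1081), 192 (A1620), 1034 (A1625), 973 (A2031) and 473 (A2032) in KPC lines. Its longest transcript has 7907 bases, the longest of the family, and the lowest line was A1620, the library with the strongest length trend. The log2 difference was 0.32 (95% interval -0.71 to 1.35, limma adjusted p = 0.765). Without A1620 it was -0.07, and with a correction for transcript length it was 0.05.

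Flii encodes flightless I, which acts in actin remodelling and as a nuclear receptor coactivator. It varied least of the family. Flii had 3064 (A1693), 3359 (A1809), 3187 (A1925), 2995 (A2441) and 3729 (A3992) normalized counts in KPCAf/f lines, against 2930 (A1081), 3490 (A1620), 3944 (A1625), 3606 (A2031) and 4181 (A2032) in KPC lines. The ranges were 1.25-fold within KPCAf/f and 1.43-fold within KPC. The log2 difference of -0.15 (95% interval -0.48 to 0.19, limma adjusted p = 0.673) had the narrowest interval of the 7.

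**Figure D2:**
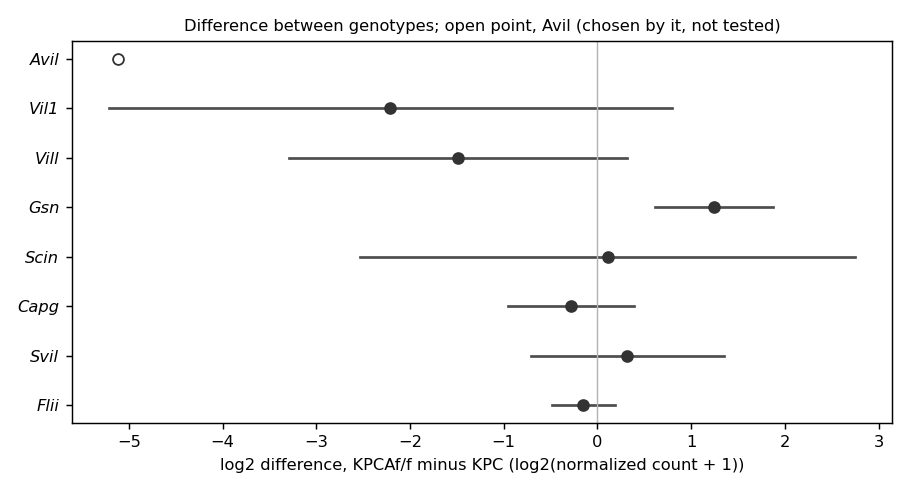
Log2 difference in level, KPCAf/f minus KPC, for each gelsolin family gene; filled points are limma estimates with 95% intervals for each gene alone, not adjusted for the number of genes tested. The open point is Avil, which was chosen by this difference and not tested. The Gsn interval lies above 0 while its adjusted p was 0.0604, and the intervals of Vil1, Vill and Scin are wide.

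Levels of different genes were compared per kilobase of longest annotated transcript. Capg, Gsn and Flii held the first 3 places in all 10 lines. Capg had the highest level per kilobase in all KPC lines, at 50.5% to 63.8% of the family sum, and 33.6% to 54.6% in KPCAf/f lines. Gsn made up 30.5% to 49.2% of the sum in KPCAf/f lines and 13.6% to 22.2% in KPC lines. In A1693 and A3992 it stood above Capg, at 4805 against 4061 and 2472 against 2131 normalized counts per kb. Flii made up 7.72% to 14.5% in KPCAf/f and 8.01% to 14.7% in KPC, and in A2031 (KPC) it stood above Gsn, at 888 against 855 normalized counts per kb.

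Avil ranked between 6 and 8 of 8 in the KPCAf/f lines and between 4 and 7 in the KPC lines. Its share of the family sum per kilobase was 0.067% to 0.258% in KPCAf/f lines and 1.47% to 7.52% in KPC lines. Per kilobase, Avil averaged 9.51 ± 5.47 normalized counts in KPCAf/f and 454 ± 366 in KPC (SD, n = 5 each), with Vil1 at 152 ± 146 and 388 ± 334 and Vill at 241 ± 214 and 375 ± 51.7 in the same genotypes. In the KPC lines these 3 means differed by less than the SDs of Avil and Vil1. Scin was the lowest or next to lowest in all lines, at no more than 0.477% of the sum.

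Among the KPCAf/f lines Vil1 and Vill followed the order of the summed epithelial markers closely, and Avil did not. The summed level of 22 epithelial markers (cadherin, keratin, claudin and related genes) climbed from 6248 normalized counts (A1693) through 31163 (A2441), 60017 (A1925) and 140734 (A3992) to 145400 (A1809), and KPC lines held 184635 to 375872. The 4 keratins Krt7, Krt8, Krt18 and Krt19 made up 53.6% to 94.3% of this sum in KPCAf/f lines and 80.6% to 95.3% in KPC lines. The sum of the other 18 markers, looked at after the data were seen, put the KPCAf/f lines in the same order, with 356 (A1693), 4616 (A2441), 11524 (A1925), 16547 (A3992) and 67428 (A1809), but did not separate the genotypes, since KPC lines held 17541 to 42623. Arithmetic means of 13 of the 22 markers were higher in KPCAf/f and of 9 lower, and A1809 was the highest KPCAf/f line for 17. These means can rest on that line: the Epcam mean in KPCAf/f was 1421 with A1809 and 96.7 without it, against 300 in KPC. On the log2 scale the median difference of the 19 tested markers was -1.63, toward lower levels in KPCAf/f. The tight junction gene Cldn4, for example, had 12503 normalized counts in A1809, against at most 362 elsewhere in KPCAf/f. Epcam, an epithelial adhesion molecule, had 6720 in A1809, and the remaining 4 KPCAf/f lines lay between 15.3 and 295. Of the 22 markers 19 were tested and 0 passed (limma, 0 higher and 6 lower at an unadjusted p under 0.05, against 14.6% of all tested genes; 0 by edgeR and limma-voom, 2 lower by DESeq2). Muc1, a membrane mucin, averaged 1486 ± 1857 normalized counts in KPCAf/f and 10697 ± 3090 in KPC (log2 difference -4.24, limma adjusted p = 0.121), and Krt18, a simple epithelial keratin, 18155 ± 13204 and 63426 ± 32416 in the same genotypes (adjusted p = 0.131). Muc1 passed without A1693 (log2 difference -2.97, limma adjusted p = 0.0225) and without A1809 (-5.02), within a range of 0.0225 to 0.223 over the lines left out, and with DESeq2 (0.016), as Krt18 did (0.0275). Vil1 gave the same order of the 5 KPCAf/f lines, from A1693 to A1809. Vill gave the same order except that A3992 exceeded A1809. The KPC lines did not show this order. Vil1 had 1523 normalized counts in A2031, with the lowest KPC sum, and 767 in A1620, with the highest. Vill stayed between 1245 and 1770 in KPC lines. Avil was lowest in A3992 and A1809, the KPCAf/f lines with the most epithelial transcript, at 15.0 and 20.5 normalized counts, where Vil1 had 695 and 1111. These are descriptions over 5 lines of each genotype without a test. In bulk samples fewer cells of a type and less RNA per cell cannot be told apart.

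**Figure D3:**
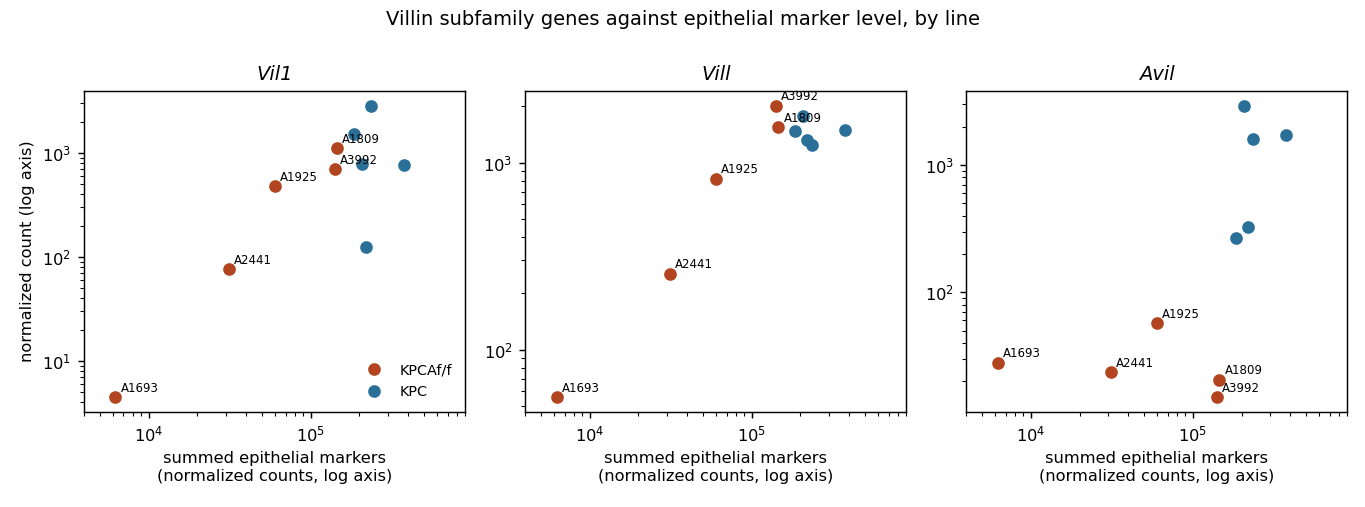
Normalized count (log axis) of Vil1, Vill and Avil against the summed normalized count of 22 epithelial markers (log axis) in each line, mostly keratins; KPCAf/f lines are named and KPC lines are the other points. In KPCAf/f lines Vil1 and Vill climb with the epithelial sum from A1693 to A1809 and A3992, while Avil stays between 15.0 and 57.3.

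Brush border genes, the usual partners of villin, did not pass the test individually. Of 19 tested members of a list of 25, 0 passed in either direction (limma, edgeR and limma-voom), while DESeq2 called 1 lower. At an unadjusted p under 0.05 limma placed 8 lower and 0 higher, where 14.6% of all tested genes reach this level, and the median log2 difference was -1.4. Anks4b, a scaffold of the links between microvilli, averaged 97.4 ± 86.4 normalized counts in KPCAf/f and 757 ± 213 in KPC (log2 difference -4.24, limma adjusted p = 0.0976). Slc9a3r1, the ezrin-binding scaffold EBP50, averaged 1655 ± 756 and 3764 ± 694 in the same genotypes (adjusted p = 0.165). The summed level of the list was 13645 to 54709 in KPCAf/f lines and 39919 to 79042 in KPC lines, with A1693 the lowest. Cdx2, an intestinal homeobox factor, and Hnf4a, an endodermal nuclear receptor, averaged 167 ± 220 and 2416 ± 2651 in KPCAf/f, against 692 ± 345 and 5802 ± 1885 in KPC, without passing (limma adjusted p = 0.248 and 0.405).

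Several defining transcripts of tuft cells were at or near 0 in the KPC lines, where Avil was high. Others on the list were not, among them Dclk1, Ptgs1, Itpr2, Plcg2 and Cd24a. Of 31 tuft cell markers, 6 had enough reads to be tested and 0 passed (limma, 1 higher and 1 lower at an unadjusted p under 0.05, against 14.6% of all tested genes; 0 by edgeR, DESeq2 and limma-voom). The 6 tested had a median log2 difference of 0.83. Trpm5, the taste transduction channel of tuft cells, did not exceed 4.09 normalized counts in any KPCAf/f line or 1.12 in any KPC line. Pou2f3, the tuft cell master regulator, reached 45.8 in 1 KPCAf/f line and at most 11.3 in KPC lines. Chat, Sh2d7 and Rgs13 had 0 reads in all lines. Dclk1, a kinase widely used as a tuft cell marker, averaged 889 ± 971 in KPCAf/f and 232 ± 272 in KPC (limma adjusted p = 0.439). Ptgs1 averaged 2276 ± 3204 in KPCAf/f and 1488 ± 1186 in KPC. Itpr2 averaged 418.9 ± 300.4 and 229.5 ± 147.1, and Plcg2 384.1 ± 582.5 and 130 ± 105.6, in the same genotypes. The part of tuft cell transcripts in the Avil values was not tested. The summed level of the list was 876 to 12090 in KPCAf/f and 4769 to 14773 in KPC, with Cd24a and Ptgs1 the most abundant on average. Cd24a, a surface glycoprotein of many epithelial cells, averaged 2660 ± 2102 in KPCAf/f and 6872 ± 2682 in KPC (limma adjusted p = 0.303), and Nrgn 16.2 ± 5.53 and 9.35 ± 17.9 in the same genotypes (adjusted p = 0.316).

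Sensory neurons are the other known setting of advillin. Of 22 markers listed, 21 were in the table and 7 were tested, with 0 past the threshold (limma, 5 higher and 0 lower at an unadjusted p under 0.05, a level that 14.6% of all tested genes reach; 0 by edgeR and limma-voom, 2 higher by DESeq2, which called 5.7% of all genes). The 7 tested had a median log2 difference of 2.29, toward higher levels in KPCAf/f. Some, such as Stmn2 and Runx3 (KPC medians 2.06 and 0.947), were tested largely because they reached 10 normalized counts in KPCAf/f lines. The summed level was 329 to 1432 normalized counts in KPCAf/f lines and 44.7 to 312 in KPC lines. Isl1, a homeobox factor of sensory neurons, had 0 reads in KPCAf/f lines and at most 0.978 normalized counts in a KPC line. Stmn2, a neuronal tubulin regulator, averaged 184 ± 219 in KPCAf/f and 4.04 ± 6.71 in KPC (limma adjusted p = 0.125), and Runx3, a transcription factor also found in lymphocytes, averaged 449 ± 434 and 14.2 ± 19.1 in the same genotypes (adjusted p = 0.17).

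Leukocyte markers bear on Capg, which macrophages express strongly. Of 18 listed, 4 were tested and 0 passed (limma, 0 higher and 1 lower at an unadjusted p under 0.05, as 14.6% of all tested genes had; 0 by edgeR, DESeq2 and limma-voom). The 4 tested had a median log2 difference of 0.12. Ptprc, the pan-leukocyte antigen CD45, did not exceed 9.82 normalized counts in any KPCAf/f line or 11.3 in any KPC line, and Adgre1, the macrophage antigen F4/80, did not exceed 0.881 and 0. Ms4a1 had 0 reads in all lines. Other listed genes were well above 0. Csf1r, a macrophage receptor, averaged 78.2 ± 80.34 in KPCAf/f and 30.31 ± 26.15 in KPC (limma adjusted p = 0.789). Cd14 averaged 1120 ± 825.5 and 1247 ± 300.1 in the same genotypes (adjusted p = 0.659). The summed level of the list was 414 to 2463 in KPCAf/f and 1607 to 3175 in KPC, and Cd14 and Mrc1 made up 78.5% to 97.6% of it in 9 lines and 28.3% in A1693, where Cd68 was at 293. Mrc1, the mannose receptor, averaged 132 ± 164 and 752 ± 912 (adjusted p = 0.227), and Cd68, a lysosomal protein, 111 ± 103 and 46.9 ± 15.4 (adjusted p = 0.443), in KPCAf/f and KPC in that order.

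Of 58 tested members of a list of 61 actin filament regulators (cofilins, capping protein, profilins, formins, Arp2/3 subunits, bundlers, tropomyosins and others), 0 passed (limma; 0 by edgeR and limma-voom, 1 higher and 1 lower by DESeq2). At an unadjusted p under 0.05 there were 3 higher and 3 lower of the 58, against 14.6% of all tested genes, and the median log2 difference was -0.06. Dbn1, the side-binding protein drebrin, averaged 994 ± 300 normalized counts in KPCAf/f and 294 ± 298 in KPC (log2 difference 2.11, SE 0.49, limma adjusted p = 0.0605), and passed without A1625 (2.58, adjusted p = 0.00418, range 0.00418 to 0.144 over the lines left out) and with DESeq2. Tmsb10, a monomer-binding thymosin, averaged 5533 ± 1730 in KPCAf/f and 14165 ± 9565 in KPC (log2 difference -1.22, SE 0.36, adjusted p = 0.137), with A1620 at 31216. Actb and Actg1, the cytoplasmic actins, were at 51782 ± 9349 and 6325 ± 991 in KPCAf/f and 68227 ± 26829 and 6415 ± 1320 in KPC, and did not pass (limma adjusted p = 0.591 and 0.987).

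Of 6 actin genes 4 were tested and 1 rose, Acta2, the smooth muscle actin, at 1518 ± 1287 normalized counts in KPCAf/f and 14.8 ± 24.5 in KPC (log2 difference 7.11, SE 1.15, limma adjusted p = 0.00883). Counts of genes that rose in this and the next lists stand against 1.36% of all tested genes called higher and 0.39% called lower. Of 14 smooth muscle and myofibroblast markers 9 were tested and 5 rose, 0 fell and 4 did not pass (limma; higher calls numbered 3 in limma-voom, 4 in edgeR and 6 in DESeq2), with a median log2 difference of 3.68. Of these 5, 2 were under 10 normalized counts in all KPC lines. Those 2 were tested only because they reached 10 in all KPCAf/f lines, and could be called in that direction alone. The 5 that rose include Myl9, a myosin light chain, at 491 ± 669 and 1.25 ± 2.3, Tagln, an actin cross-linker, at 521 ± 414 and 8.47 ± 16.8, and Synpo2, a Z-disc protein, at 107 ± 92.7 and 1.6 ± 1.49, in KPCAf/f and KPC in that order. Acta2 and Tagln were also under 10 in most KPC lines, with KPC medians of 3.91 and 1.89. They too were tested because they reached 10 in the KPCAf/f lines. Line A2441 was the highest for Myl9 and Synpo2, and without it their KPCAf/f means were 195 ± 107 and 69.3 ± 43.5. Of 25 targets of serum response factor and its MRTF coactivators 24 were tested, 4 rose and 0 fell (limma; higher calls numbered 1 in limma-voom, 3 in edgeR and 6 in DESeq2), with a median of 0.56. Of these 4, 1 (Myl9) was under 10 normalized counts in all KPC lines and could likewise be called higher alone. Myl9, Acta2 and Tagln are also in the contractile list, with the limits given there. Itga5, a fibronectin receptor subunit, averaged 1717 ± 438 in KPCAf/f and 788 ± 172 in KPC (limma adjusted p = 0.0328). Itga5 lost its call without A1693, A1809, A2441, A1081, A1620, A1625 or A2031 (limma, largest adjusted p = 0.0906), and limma-voom put it at 0.0554. Acta2 and Tagln lost theirs with limma-voom (adjusted p = 0.134 and 0.101), and Tagln also with edgeR (0.0665).

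Fibroblast markers are given because fibroblasts express Gsn. Of 18 listed 11 were tested and 8 rose and 0 fell (limma), against 1.36% and 0.39% of all tested genes. Of these 8, 5 were under 10 normalized counts in all KPC lines, so that they were tested only because they reached 10 in all KPCAf/f lines and could be called in that direction alone. Calls by edgeR and DESeq2 numbered 8 each and by limma-voom 4. The DESeq2 calls lack Col1a2, to which DESeq2 gave no adjusted p. They include Twist2 (DESeq2 adjusted p = 0.00998), which limma did not call (adjusted p = 0.207). The fibrillar collagen genes Col1a2 and Col3a1 averaged 16366 ± 30761 and 4487 ± 4401 normalized counts in KPCAf/f, against 2.36 ± 1.85 and 1.82 ± 1.76 in KPC. Pdgfrb, a growth factor receptor, averaged 972 ± 862 in KPCAf/f and 0.667 ± 0.623 in KPC, and Prrx1, a mesenchymal homeobox factor, 3295 ± 2953 and 6.84 ± 6.63 in the same genotypes. Prrx1 was also under 10 in most KPC lines (KPC median 4.73) and was tested because it reached 10 in the KPCAf/f lines. Line A1693 was the highest for Col1a2, at 71336, and for Col3a1 and Prrx1, and without it the KPCAf/f means of these 3 genes were 2623 ± 1614, 2665 ± 1923 and 2128 ± 1592. Without A1925, its highest line, the Pdgfrb mean was 619 ± 398. Of these 4, Col1a2 and Prrx1 lost their calls with limma-voom (adjusted p = 0.0992 and 0.0763). The summed level of the list was 105709 normalized counts in A1693, 17862 in A1809, 25661 in A1925, 32254 in A2441 and 19659 in A3992, against 700 to 1266 in KPC lines. A1693 was highest in both Gsn and the fibroblast sum, but A1809, with the lowest fibroblast sum of the KPCAf/f lines, had the next highest Gsn. The part of fibroblast transcripts in the Gsn values was not tested.

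Within 100 kb of the start of Avil the annotation places 15 other genes, of which 12 were in the table, 11 had a read in any line and 7 were tested. Of these 7, 0 passed between the genotypes (limma; 0 by edgeR, DESeq2 and limma-voom) and 0 had groups that did not overlap, while 3 had an unadjusted p under 0.05, and 6 of the 7 log2 differences were negative. Over all tested genes 1.75% passed, 4.53% did not overlap and 14.6% had an unadjusted p under 0.05. Ctdsp2, a small phosphatase whose gene starts 22 kb upstream on the same strand and ends just before Avil, averaged 3277 ± 876 normalized counts in KPCAf/f and 3048 ± 960 in KPC (log2 difference 0.12, SE 0.26). Tsfm averaged 451 ± 101 and 754 ± 351 (log2 difference -0.67, SE 0.3, limma adjusted p = 0.33), and Mettl1, a tRNA methyltransferase, 389 ± 69.4 and 658 ± 271 (log2 difference -0.69, SE 0.28, adjusted p = 0.289), in KPCAf/f and KPC in that order. Xrcc6bp1, now named Atp23, averaged 96.9 ± 18.7 in KPCAf/f and 197 ± 87.3 in KPC (log2 difference -0.94, SE 0.34, adjusted p = 0.23).

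Cdk4, the G1 cyclin-dependent kinase 62.8 kb downstream, averaged 9142 ± 2207 normalized counts in KPCAf/f and 10039 ± 3316 in KPC (log2 difference -0.12, SE 0.25). Tspan31, a tetraspanin, averaged 1781 ± 319 and 2156 ± 620, and March9, a ubiquitin ligase, 149 ± 135 and 205 ± 98.4, in the same genotypes, with log2 differences of -0.25 and -0.7. A1620 was the highest line for Xrcc6bp1, Tsfm, Mettl1, Cdk4 and Tspan31, and without it the Tsfm difference was -0.43. The remaining neighbours Cyp27b1, Mettl21b and Agap2 stayed at or below 20.5 normalized counts in each line, and Mir26a-2 had 1 read in all.

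**Figure D4:**
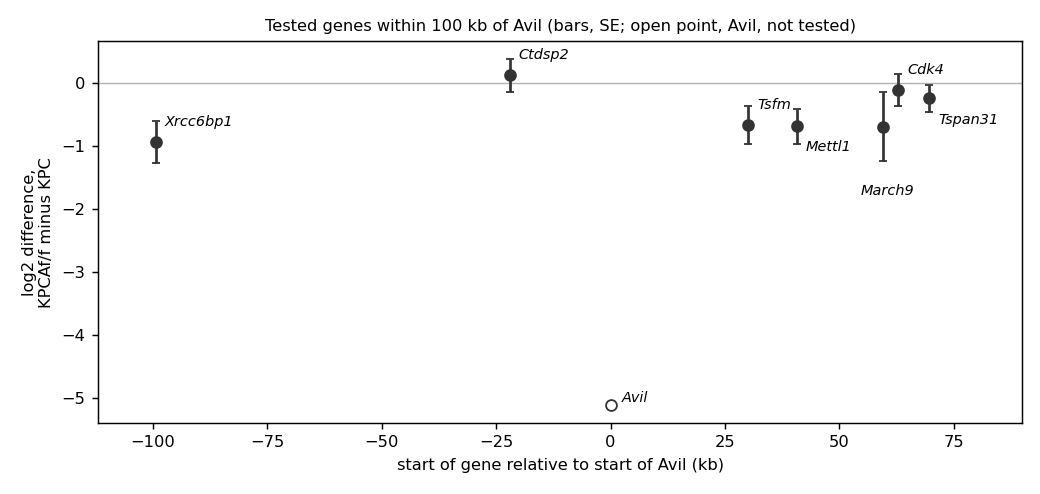
Log2 difference in level, KPCAf/f minus KPC, of the 7 tested genes that start within 100 kb of Avil, by the distance of their start from the start of Avil in kb; bars are SE from limma. The open point is Avil, which was chosen by its difference and not tested. The neighbours lie between -0.94 and 0.12, and Avil lies at -5.12.

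The genes whose values over the 10 lines were most like those of Avil were sought over all tested genes. Likeness was measured as the root mean square difference over the 10 lines between log2(normalized count + 1) values, each gene centred on its own mean. The closest named genes were Adam23 (1.23 log2 units), a disintegrin without protease activity, and Spats2l (1.46). They were followed by Krt79 (1.46), a keratin of hair follicle and sebaceous ducts, Ptprt (1.52), a receptor tyrosine phosphatase, Rsph10b (1.54), a radial spoke protein, En1 (1.58), a homeobox factor, Atp4a (1.58), the gastric proton pump, and Tlr1 (1.61), a receptor for bacterial lipopeptides. The measure contains the difference by which Avil was picked and the pattern among lines of each genotype, so that no test is given for these genes.

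Atp4a had the same order of KPC lines as Avil, at 97.9 normalized counts in A2032, 71.5 in A1620, 48.9 in A1625, 20.8 in A1081 and 14.5 in A2031. In the KPCAf/f lines Atp4a had 0.9 (A1693), 4.91 (A1809), 4.22 (A1925), 1.12 (A2441) and 22.0 (A3992). Rsph10b also separated A1620, A1625 and A2032, at 66.2, 162 and 111, from A1081 and A2031, at 24.6 and 23.5. Adam23, the closest gene, did not, since its lowest KPC line was A2032 with 20.6. The other family members lay between 2.54 (Vill) and 3.33 (Gsn) log2 units from Avil. A gene with no difference between the genotypes is far from Avil by construction, so that nothing is read from these distances.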

How the data were processed

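RNeasy Mini columns were used for RNA and a TruSeq Stranded mRNA kit for libraries, per the labels' protocols. According to the submitters' processing notes, base calls came from bcl2fastq 1.8.4, and the other tools named are Trimmomatic 0.36 for reads, STAR 2.5.2b, Subread 1.5.0p3 with featureCounts, and DESeq2 1.14.1 under R 3.3.2. The notes also name GRCm38.p5 and mm9 without a role. The deposited table holds a size-scaled signal: the authors divided gene counts by DESeq2 size factors. Whole reads within a tolerance of 0.001 were recovered for 100% of values. No library was a copy of another (lowest chi-square per degree of freedom 55.6).

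Genotypes were compared by limma 3.58.1 (trended variance, R 4.3.3) after adding a pseudocount of 1 and taking log2, which understates the change of low genes. P-values are two-sided and adjusted by Benjamini-Hochberg across 13089 genes reaching 10 normalized counts in 5 or more lines. All 8 family members passed this filter. Scripts were tested on simulated data. DESeq2 made more false calls there than the other tools did, and all tools missed many smaller changes. Alternatives were pseudocounts of 0.5 and 5, no filter, a mean of at least 100, TMM and quantile scaling, a length correction, lines left out, and, on recovered reads, edgeR 4.0.16 (145 genes higher and 27 lower), DESeq2 1.42.0 (521 and 210) and limma-voom (76 and 29). Coordinates are from GENCODE M21 (GRCm38), which held 95.3% of the symbols. Figures were drawn with matplotlib 3.10.9. Genes named were the members, neighbours of Avil, up to 4 called genes of each list (otherwise the 2 with the smallest p), the 8 genes most like Avil, and Arid1a. Pdx1, Cdh1, Cdx2, Hnf4a, Actb, Actg1, Ptgs1, Itpr2, Plcg2, Cd14, Csf1r, Twist2, Dclk1, Cldn4, Epcam and the cell type markers at or near 0 were added after their values were seen. Members, lists and rules were chosen with earlier results of these data known.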

Additional observations from a re-analysis of the deposited data

Results flagged for a closer look

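Among 88 groups of 5 lines checked for a line far from the others on the log2 scale, 3 were found, where chance gives about 1 in 20 groups. Tmsb10 was at 31216 normalized counts in KPC line A1620, against 9035 to 11193 in the other KPC lines. Krt18 was at 120699 in the same line, against 41140 to 55136. Slc9a3r1 was at 375 in KPCAf/f line A1693, against 1674 to 2297 in the other KPCAf/f lines. None of these 3 is a member of the gelsolin family.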

How the results depend on the processing

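No paired analysis was possible because the labels give no replicate numbers, and nothing in them ties a line of a genotype to a line of the other. Over all genes, 178 higher and 51 lower calls became 109 and 22 with a mean of at least 100, 521 and 210 with DESeq2, 76 and 29 with limma-voom, and 145 and 27 with edgeR. With any 1 line left out they ran from 122 to 227 and from 24 to 91 (91 without A1809, 30 without A1925 or A2441, and 24 to 32 without any 1 KPC line). Gsn passed with TMM scaling (log2 difference 1.25, limma adjusted p = 0.0487), quantile scaling (1.45, 0.0256), DESeq2 (1.22, 0.00517) and the length correction (1.28, 0.0364), so that the count of members higher was 1 in these settings and 0 in the others. The Gsn difference was 1.08 to 1.38 with any 1 line left out. Scin turned negative with a pseudocount of 5 (-0.15), quantile scaling (-0.05), edgeR (-1.28), DESeq2 (-1.3) and without A1620 and A1693 (-0.41), and ran from -0.79 to 1.09 with any 1 line left out. Svil turned to -0.19 without A1620 and A1693, and ran from -0.07 to 0.54 with any 1 line left out. Of the neighbours, Ctdsp2 turned to -0.02 with the length correction and -0.13 without A1620 and A1693 (-0.02 to 0.24 with any 1 line left out), and Cdk4 to 0.17 with quantile scaling (-0.23 to 0.06 with any 1 line left out). Of the list genes, 14 higher and 0 lower calls became 7 higher with limma-voom, and lower calls became 4 with DESeq2 and 1 without A1620 and A1693, with 13 to 15 higher and 0 to 1 lower when any 1 line was left out. Avil means ran from 21.7 to 32.3 in KPCAf/f and from 987 to 1653 in KPC with a line of that genotype left out. The cause of these changes was not tested. Scaling moved the median of A1620 by -0.125 (TMM) and 0.166 (quantile) on the log2 scale and no other line by more than 0.1. Depth limits Scin and, in KPCAf/f, Avil, which rest on 17 to 68 Avil reads and 4 to 35 Scin reads per KPCAf/f line.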
